A study of Mus musculus with 9 samples.

Results

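The genes described here encode receptors and adhesion molecules that hold blood stem and progenitor cells in the bone marrow. They are Cxcr4, Ptger4, Itga4, Itgb1, Itgal, Itgb2, Cd44, Selplg and Vcam1, chosen by symbol from a table of 14940 mouse genes. All 9 were in the table, and all 9 passed the filter on low values, Vcam1 with only 4 libraries at or above the minimum. RNA was measured in LSK cells, the sorted marrow fraction that lacks lineage markers and carries Sca1 and cKit, home to stem cells and early progenitors. There were 9 libraries, from C57BL/6 mice whose ages are not given in the labels. In 3 mice, experimental autoimmune encephalomyelitis (EAE) had been induced and SR59230A, which blocks β3-adrenergic receptors, was given for 3 days (treated EAE mice). The other EAE group was 3 mice sampled 3 days after induction, and the naive group was 3 mice that were not immunized. Induction used complete Freund's adjuvant, an oil with mycobacteria, together with residues 35 to 55 of myelin oligodendrocyte glycoprotein. No group received adjuvant alone and no vehicle is named, so adjuvant and peptide, and the antagonist and its administration, cannot be told apart.

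In the marrow, stromal cells secrete the chemokine CXCL12, and its receptor CXCR4 on stem and progenitor cells keeps them in place. Integrins, which are pairs of an α and a β chain, bind the cells to VCAM-1, to ICAM proteins and to matrix, while CD44 binds hyaluronan and PSGL-1 binds selectins on vessel walls. Nerves that act on β3-adrenergic receptors of marrow stroma are known in mice to lower CXCL12, and prostaglandin E2, acting through receptors such as EP4, is known to raise CXCR4 on stem cells.

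Cxcr4 and Ptger4, which encodes EP4, were the 2 members that rose after immunization. The sequences around their annotated start sites are shown because these genes were the ones that rose together. Each run has 250 bases before and 50 bases after the start in RefSeq on build GRCm38.p6, and 5 of the 9 members had an entry. Capitals mark GC boxes (GGGCGG) and the TATA box (TATAAA), each searched on both strands. The Cxcr4 window is chr1:128592250-128592549 on the minus strand, and the Ptger4 window is chr15:5244138-5244437, also on the minus strand.
Cxcr4: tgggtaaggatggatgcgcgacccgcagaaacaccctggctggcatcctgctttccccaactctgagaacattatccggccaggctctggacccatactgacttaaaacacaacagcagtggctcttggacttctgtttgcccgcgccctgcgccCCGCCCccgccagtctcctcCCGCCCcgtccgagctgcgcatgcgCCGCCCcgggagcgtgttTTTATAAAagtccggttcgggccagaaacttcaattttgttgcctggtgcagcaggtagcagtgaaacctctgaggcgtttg
Ptger4: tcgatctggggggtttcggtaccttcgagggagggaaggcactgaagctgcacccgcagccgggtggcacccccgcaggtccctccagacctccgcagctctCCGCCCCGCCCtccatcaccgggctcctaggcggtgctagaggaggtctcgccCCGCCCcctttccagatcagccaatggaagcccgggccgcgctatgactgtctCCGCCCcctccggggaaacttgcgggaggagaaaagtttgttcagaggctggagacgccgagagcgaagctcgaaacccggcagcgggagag

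The Cxcr4 window held 3 GC boxes and the Ptger4 window 4, of which 2 overlap by a base. The windows of Itga4, Itgb1 and Cd44, which did not pass in any comparison, held 1 each, and 35.7% of all 32851 promoter windows held at least 1. The share of all windows with 3 or more was not counted, so the numbers of boxes have no background to be set against. TATAAA occurred in the Cxcr4 window on both strands, as 2 overlapping matches that cover 8 bases, and in no other of the 5, against 13.6% of all windows. The cAMP response element TGACGTCA, the same on both strands, was in none of the 5 windows and in 1.79% of all windows. These matches describe the letters only.

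The table holds whole numbers that had been adjusted before deposition, so depth is unknown, no counting interval can be given, and levels of different genes, which are not per length, are set against each other only to say which gene makes up most of a summed value. The values summed to between 8641735 and 10387955 per library. They were scaled between libraries, and every level below is a scaled value without a further unit. Two-sided tests used limma-trend on log2(value + 1) across 13018 genes in all 9 libraries, and a gene was called at a Benjamini-Hochberg adjusted p under 0.05. This log scale understates fold changes of low genes. Kit and Ly6a, the genes of the sort gate, were high in every library, at 4846 to 7236 and at 1412 to 2539. The first principal component, 45.6% of the variance, set the naive libraries (33.1 to 42.3) apart from the other 6 (-24.7 to -11.5), and EAE replicate 2 stood alone on the third component at -36.0. The p-values measure the spread between mice as far as the adjusted values still hold it.

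Immunization was followed by higher Cxcr4 and Ptger4 in LSK cells, while neither chain of the integrin VLA-4 moved beyond its spread. Of the 9 members, 2 rose and none fell in EAE mice against naive mice, and 2 rose and none fell in treated EAE mice against naive mice. Cxcr4 was 1.32-fold and Ptger4 1.84-fold higher in EAE mice than in naive mice. In that comparison 14.2% of all tested genes were called, 9.13% as higher and 5.1% as lower. For treated EAE against naive mice the shares were 14.8%, 10.2% and 4.61%. Scaling moved this balance: higher genes were 64.2% of those called in EAE against naive mice and 68.9% in treated EAE against naive mice, but 36% and 34.1% with total-sum scaling, 47% and 46.7% with upper-quartile scaling, and, for treated EAE against naive mice, 45.6% without scaling. At an unadjusted p under 0.05 there were 2 members in EAE against naive mice and 4 in treated EAE against naive mice, where 28.8% (17.1% higher) and 31.1% (18.5% higher) of all genes were. The median log2 fold change of the 9 members was 0.08 in EAE against naive mice and 0.22 in treated EAE against naive mice, where all tested genes had medians of -0.0032 and 0.0071. These comparisons share the naive libraries and are not independent of each other.

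**Figure D1:**
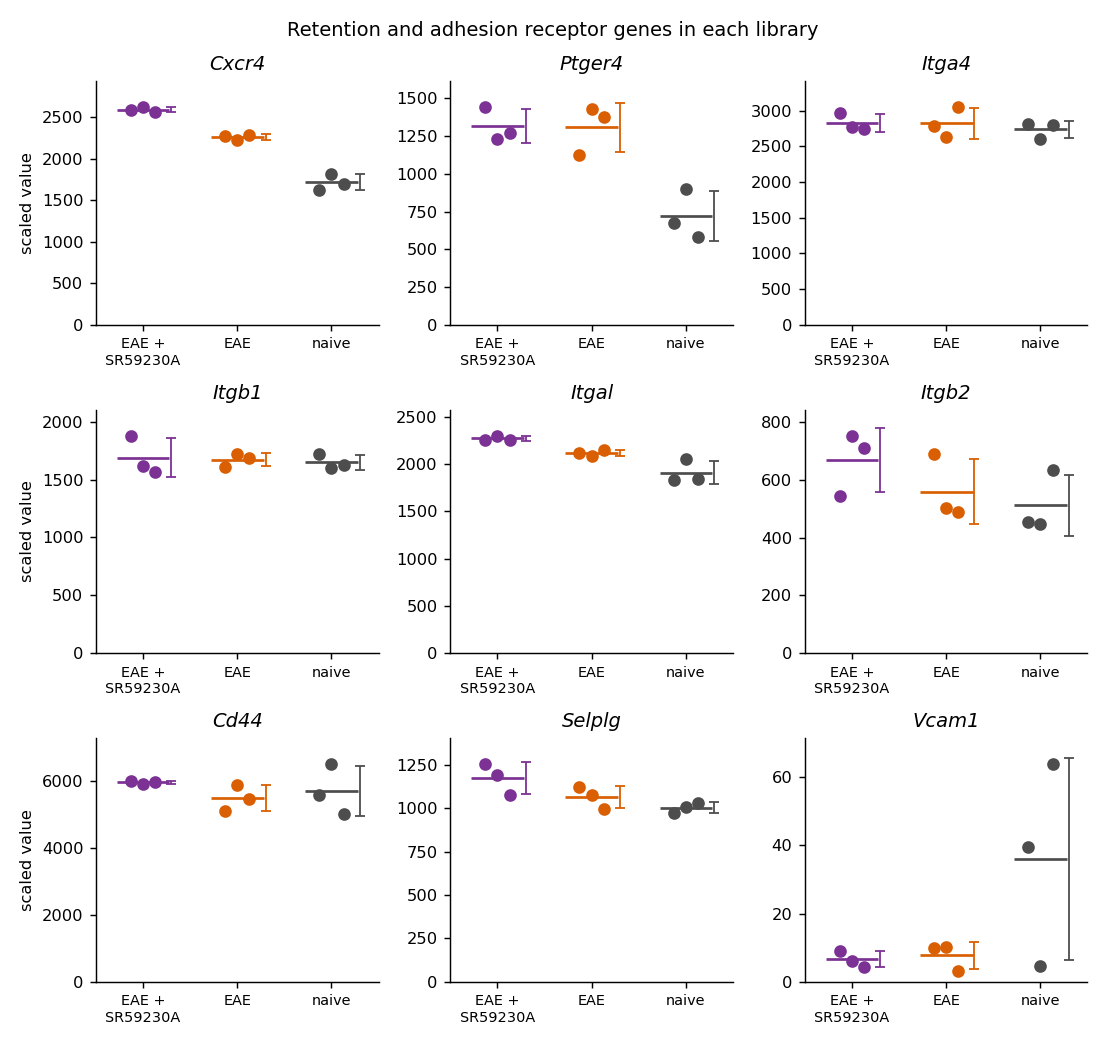
Scaled value of each gene (vertical axes, from 0) in each library, by group. Points are single mice, horizontal lines are group means and error bars are 1 SD (n = 3). The Cxcr4 values of the 3 groups do not overlap, Ptger4 is higher in both immunized groups than in naive mice, and Vcam1 is above 11 in naive replicates 1 and 3 only.

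Cxcr4 encodes the receptor for CXCL12. Its level was 2591, 2624 and 2561 in treated EAE mice, 2279, 2227 and 2292 in EAE mice, and 1631, 1821 and 1696 in naive mice. By scaled value, every treated library lay above every EAE library, and every EAE library above every naive library. Before scaling, treated replicate 3 (2306) lay below EAE replicate 1 (2524), while every EAE library was still above every naive library. The group means were 2592 ± 31.7 in treated EAE, 2266 ± 34.6 in EAE and 1716 ± 96.8 in naive mice (SD, n = 3 each). Cxcr4 rose in EAE mice against naive mice by 0.40 ± 0.08 on the log2 scale (SE, limma-trend adjusted p = 0.00971). Its call was lost when libraries were not scaled (log2 fold change 0.37, limma-trend adjusted p = 0.077, with 0.000756 to 0.077 over all its alternatives). With total-sum scaling it stood close to the threshold (log2 fold change 0.28, adjusted p = 0.0494).

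In treated EAE mice against naive mice Cxcr4 rose by 0.60 ± 0.08 on the log2 scale, 1.51-fold (95% interval 1.33 to 1.72, limma-trend adjusted p = 0.00118). This call held under all 18 alternatives, with adjusted p of at most 0.0271. Between treated EAE and EAE mice the log2 fold change of Cxcr4 was 0.19 ± 0.08, 1.14-fold with a 95% interval of 1.01 to 1.30. That difference did not pass: its unadjusted p was 0.0426 and its limma-trend adjusted p was 0.998.

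Ptger4 encodes EP4, a prostaglandin E2 receptor that raises cyclic AMP. It stood at 1441, 1230 and 1269 in treated EAE mice, 1122, 1427 and 1376 in EAE mice, and 677, 901 and 583 in naive mice. The naive libraries all lay below the other 6, among which the treated and untreated mice overlapped. Ptger4 rose in EAE mice against naive mice by 0.88 ± 0.15 on the log2 scale (95% interval of the fold 1.46 to 2.33, limma-trend adjusted p = 0.00382), and the call held under all 18 alternatives (adjusted p 0.00143 to 0.0169). In treated EAE mice against naive mice it rose by 0.89 ± 0.15, 1.85-fold (limma-trend adjusted p = 0.00375). Treated EAE and EAE mice were 1.01-fold apart, with a 95% interval of 0.795 to 1.27, and did not pass (limma-trend adjusted p = 0.999).

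Monocyte marker sums were also higher in both immunized groups, while mature neutrophil sums overlapped between EAE and naive mice. The summed level of 6 monocyte marker genes in the table, of 7 listed, was 4040 to 4760 in treated EAE mice, 4174 to 5053 in EAE mice and 577 to 802 in naive mice, and 4 of the 6 rose in EAE mice. Of 11 mature neutrophil markers, 2 rose in EAE mice against naive mice, with sums of 7533 to 16731 in treated EAE, 3471 to 16496 in EAE and 2478 to 6434 in naive libraries. Of 13 tested genes of the sort gate and of progenitors, 2 rose and 6 fell in EAE mice; Kit fell by 0.43 ± 0.09 and Ly6a rose by 0.46 ± 0.12 on the log2 scale. The part of these shifts in the rises of Cxcr4 and Ptger4 was not tested. In such bulk samples, fewer cells of a type and less RNA per cell cannot be told apart.

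**Figure D2:**
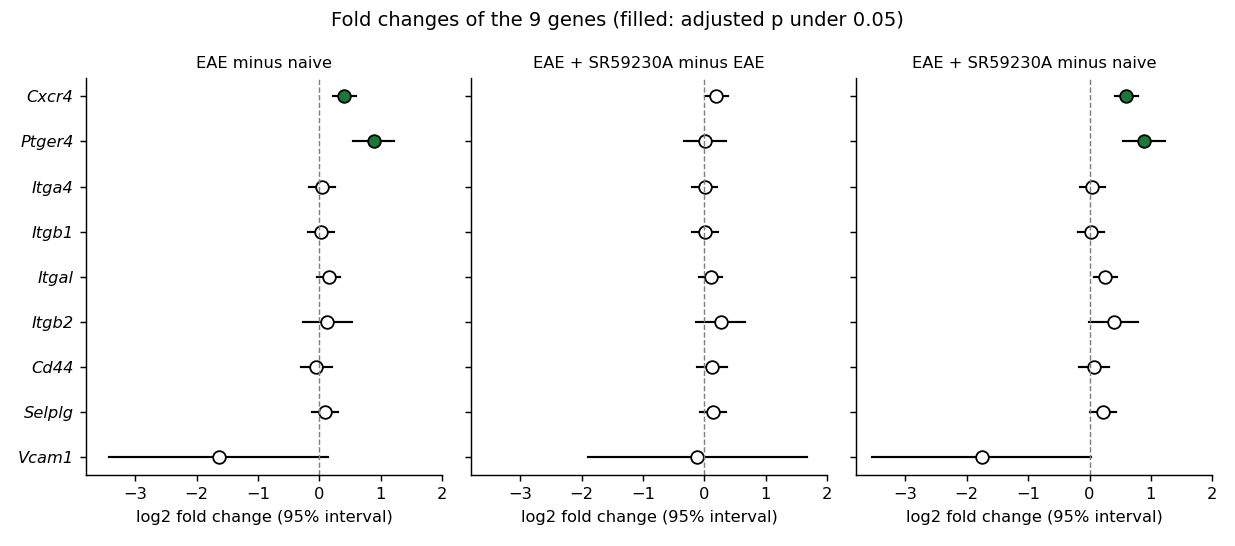
Log2 fold change (horizontal axes) of each gene in the 3 comparisons, with 95% intervals as lines. Filled points have adjusted p under 0.05 by limma-trend: Cxcr4 and Ptger4 are filled in both comparisons with naive mice, no gene is filled between treated EAE and EAE mice, and Vcam1 has the widest interval in each panel.

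Itga4 and Itgb1 encode the α4 and β1 chains of VLA-4, which binds VCAM-1 and fibronectin. Itga4 was 2970, 2770 and 2736 in treated EAE mice, 2787, 2625 and 3048 in EAE mice, and 2810, 2601 and 2793 in naive mice. Itgb1 was 1880, 1617 and 1565 in treated EAE mice, 1606, 1722 and 1690 in EAE mice, and 1720, 1603 and 1626 in naive mice. For both genes the 3 groups overlapped. The 95% intervals were narrow: for EAE against naive mice the fold was 0.893 to 1.19 for Itga4 and 0.875 to 1.18 for Itgb1. For treated EAE against EAE mice they were 0.870 to 1.16 and 0.868 to 1.17.

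The log2 ratio of Itga4 to Itgb1 within a library, which needs no scaling, was 0.75 ± 0.08 in treated EAE, 0.75 ± 0.13 in EAE and 0.73 ± 0.04 in naive mice (SD, n = 3 each). The exact two-sided permutation p was 0.9 for EAE against naive mice, 1 for treated EAE against EAE mice and 0.9 for treated EAE against naive mice. With 3 against 3 libraries the smallest p this test allows is 0.1.

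Itgal and Itgb2 encode the αL and β2 chains of LFA-1, the receptor for ICAM proteins. Itgal was 2259, 2302 and 2259 in treated EAE mice, 2121, 2084 and 2149 in EAE mice, and 1832, 2051 and 1844 in naive mice. As with Cxcr4, the scaled values of the 3 groups did not overlap and lay in the same order. Before scaling the groups overlapped: treated replicate 3 (2034) lay below every EAE library, and naive replicate 2 (2164) above EAE replicates 2 (2037) and 3 (2062). By scaled value, all 3 groups stood apart in the order of Cxcr4 in 1.66% of all tested genes, and in 2 of the 9 members. No other order was counted, and Cxcr4 and Itgal varied together over the 9 libraries (Pearson r = 0.963). These 2 are therefore no result about the members. The differences were small, and none of them passed: the log2 fold change of Itgal was 0.15 ± 0.09 in EAE against naive mice (limma-trend adjusted p = 0.271), 0.10 ± 0.09 in treated EAE against EAE mice (0.998) and 0.25 ± 0.09 in treated EAE against naive mice (0.0691).

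The last of these values was close to the threshold and changed side with the libraries and covariates of the fit. The EAE libraries are outside this comparison. Without any 1 of them the log2 fold change stayed at 0.25, and the fit held 1 covariate in place of 2. Itgal passed in treated EAE against naive mice without EAE replicate 1 (adjusted p = 0.04), EAE replicate 2 (0.0331), EAE replicate 3 (0.0253) or naive replicate 2 (0.0181), with the 6 libraries alone (0.0131) and without the covariates (0.0101), all by limma-trend. Over all alternatives its adjusted p ran from 0.0101 to 0.502.

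Itgb2, whose chain also pairs with the α chains of Mac-1 and of CD11c, was 543, 753 and 711 in treated EAE mice, 689, 501 and 488 in EAE mice, and 453, 446 and 635 in naive mice. The groups overlapped, with 1 treated library below and 1 EAE and 1 naive library above the others of their group. The log2 fold change was 0.13 ± 0.18 in EAE against naive mice, 0.26 ± 0.18 in treated EAE against EAE mice and 0.39 ± 0.18 in treated EAE against naive mice, and none passed. Without naive replicate 3, Itgb2 rose in treated EAE against naive mice by 0.56 on the log2 scale (limma-trend adjusted p = 0.0436, with 0.0436 to 0.429 over all alternatives).

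The log2 ratio of Itgal to Itgb2 was 1.78 ± 0.24 in treated EAE, 1.94 ± 0.28 in EAE and 1.92 ± 0.34 in naive mice (SD, n = 3 each). Its exact permutation p was 0.9 for EAE against naive mice, 0.5 for treated EAE against EAE mice and 0.7 for treated EAE against naive mice.

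Cd44 encodes the hyaluronan receptor, which can also carry E-selectin-binding sugars. Its level was 5983, 5904 and 5960 in treated EAE mice, 5095, 5874 and 5451 in EAE mice, and 5558, 6494 and 5002 in naive mice. By scaled value, the treated libraries lay close together and above every EAE library, while naive libraries fell on either side of both groups. Before scaling, treated replicate 3 (5367) lay below EAE replicates 1 (5642) and 2 (5741). The log2 fold change was 0.12 ± 0.11 in treated EAE against EAE mice and -0.05 ± 0.11 in EAE against naive mice, and neither passed (limma-trend adjusted p = 0.998 and 0.811).

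Selplg encodes PSGL-1, the ligand of P-selectin. It was 1254, 1189 and 1075 in treated EAE mice, 1123, 1073 and 997 in EAE mice, and 972, 1008 and 1030 in naive mice. By scaled value, treated libraries lay above all naive libraries, and the EAE libraries overlapped with both. Before scaling, treated replicate 3 (968) lay below naive replicates 2 (1064) and 3 (1097). The log2 fold change was 0.22 ± 0.10 in treated EAE against naive mice, with an unadjusted p of 0.0403 and a limma-trend adjusted p of 0.14. It passed without the covariates (adjusted p = 0.0411) and with the 6 libraries alone (0.0356), and its adjusted p reached 0.672 over all alternatives.

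Vcam1 encodes VCAM-1, the ligand of VLA-4, best known on marrow stroma, endothelium and macrophages. It was low, at 9.15, 6.11 and 4.44 in treated EAE mice and 9.93, 10.2 and 3.13 in EAE mice, against 39.5, 4.74 and 63.9 in naive mice. The high values came from naive replicates 1 and 3, while naive replicate 2 lay within the range of the other 6 libraries. The log2 fold change was -1.64 ± 0.81 in EAE against naive mice and -1.76 ± 0.81 in treated EAE against naive mice, and neither passed (limma-trend adjusted p = 0.208 and 0.165). Without naive replicate 2, the values were -2.69 and -2.81 and passed (adjusted p = 0.0112 and 0.00952, with 0.0112 to 0.466 and 0.00952 to 0.381 over all alternatives). Without naive replicate 3, they were -0.94 and -1.06 and did not pass (limma-trend adjusted p = 0.466 and 0.381).

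Some of the 13 endothelial marker genes were high in the same naive libraries. Cdh5, which encodes VE-cadherin, was 35.5, 19.0 and 123 in naive replicates 1, 2 and 3 and between 2.08 and 18.3 in the other 6 libraries. Sele, which encodes E-selectin, was 24.3, 11.4 and 62.0 in these naive libraries and between 0 and 3.61 in the others. Kdr, a receptor for vascular growth factor, was 40.5, 18.0 and 72.3 there and at most 17.8 in the others. Unlike Vcam1, these 3 markers were above every immunized library in naive replicate 2 as well, for Cdh5 and Kdr by a narrow margin. Stab2 and Plvap, also among the 13, lay within the immunized range in naive replicate 2, as Vcam1 did. Stab2 was 31.4, 18.0 and 124 in naive replicates 1, 2 and 3 and 1.02 to 42.8 in the other 6 libraries. Plvap was 72.0, 37.9 and 135 in the naive replicates and 24.0 to 69.5 in the others. The sum over all 13 endothelial markers was 7115 to 7471 in treated EAE, 6319 to 7450 in EAE and 6231 to 7706 in naive libraries. Pecam1 and Eng made up most of it in every library. Selp went the other way, at 771 to 887 in treated EAE, 933 to 1120 in EAE and 142 to 177 in naive libraries. Of the 13, 1 rose and 6 fell in EAE mice against naive mice, and 3 had a positive log2 fold change. The part of endothelial RNA in the Vcam1 values was not tested.

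**Figure D3:**
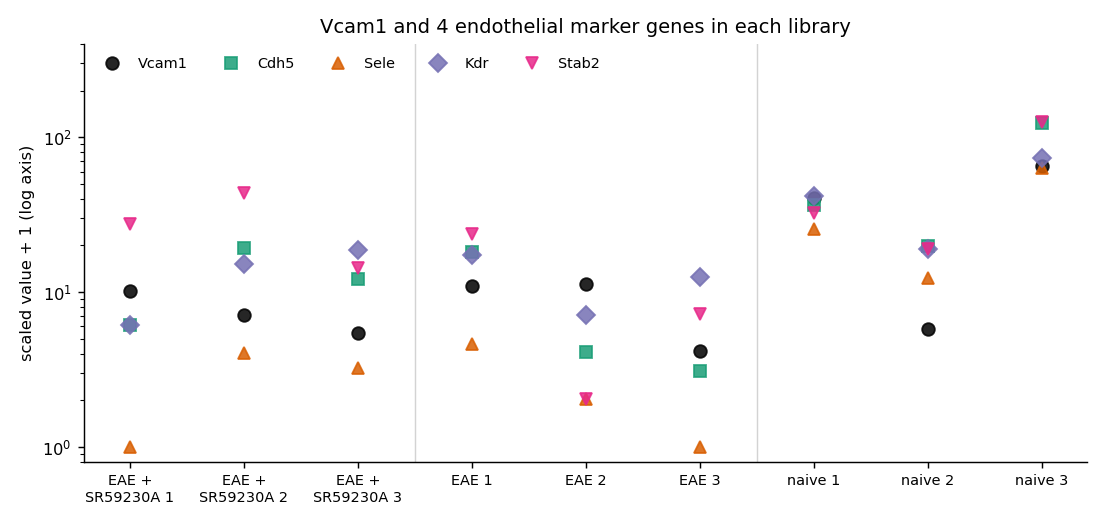
Scaled value + 1 (log axis) of Vcam1 and of 4 endothelial marker genes in each of the 9 libraries. Naive replicate 3 has the highest value of all 5 genes (Vcam1 63.9, Cdh5 123), and naive replicate 2 has raised Sele (11.4) beside a Vcam1 value of 4.74.

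For the other niche cells, the 6 stromal markers in the table, of 14 listed, summed to 1549 to 1600 in treated EAE, 1589 to 1681 in EAE and 1213 to 1426 in naive libraries. Most of this sum was Pdgfrb, at 1133 to 1625. Cxcl12, the ligand of CXCR4, was between 0 and 8.45 in every library and was not tested. Of 12 marrow macrophage markers 9 were in the table, with sums of 1074 to 1216 in treated EAE, 839 to 1103 in EAE and 715 to 1150 in naive libraries, mostly from Cd68, and Siglec1 did not exceed 8.45. The 7 T and NK cell markers in the table summed to 1071 to 1116, 1018 to 1204 and 766 to 867, the 6 B cell markers to 965 to 1055, 777 to 927 and 950 to 1254, and the 5 erythroid markers to 3467 to 3839, 3036 to 3345 and 8008 to 9004, in treated EAE, EAE and naive libraries. In the same order, Nkg7, most of the T and NK cell sum, was 754 to 836, 760 to 917 and 545 to 625. Cd79b, most of the B cell sum, was 825 to 852, 713 to 752 and 719 to 742. The erythroid sum followed the carbonic anhydrase gene Car2, at 3298 to 3713 in treated EAE, 2945 to 3212 in EAE and 7889 to 8921 in naive libraries. Of the 4 erythroid markers tested, 1 fell and 0 rose in both comparisons with naive mice.

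No change of these receptors with the β3 antagonist in immunized mice was called, and the intervals bounded the members unequally. The 95% interval of the fold was 0.870 to 1.16 for Itga4 and 0.868 to 1.17 for Itgb1, against 0.269 to 3.17 for Vcam1. These intervals hold as far as the adjusted values still carry the spread between mice. By limma-trend, 0 of the 9 members passed between treated EAE and EAE mice, and 1 of all 13018 tested genes did (0.00768%), the carbonic anhydrase gene Car1. At an unadjusted p under 0.05 there was 1 member, Cxcr4, against 3.87% of all genes (2.23% higher). By scaled value, here and in the counts that follow, the groups did not overlap in 3 members, Cxcr4, Itgal and Cd44, each higher in treated mice. In either direction 16.2% of all genes lay apart, 8.46% as higher and 7.71% as lower. Before scaling, the treated and EAE libraries overlapped in each of these members. For 8 of the 9 members the log2 fold change was positive, with a median of 0.10 beside 0.01 over all genes. The signs of Itga4, Itgb1 and Ptger4 turned negative without scaling and with upper-quartile or total-sum scaling. In EAE against naive mice, 3 members did not overlap (Cxcr4, Itgal and Ptger4, all higher), where 39.4% of all genes lay apart, 21% as higher and 18.4% as lower, and in treated EAE against naive mice there were 4, with Selplg, where 48.8% did, 26.4% as higher and 22.4% as lower.

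**Figure D4:**
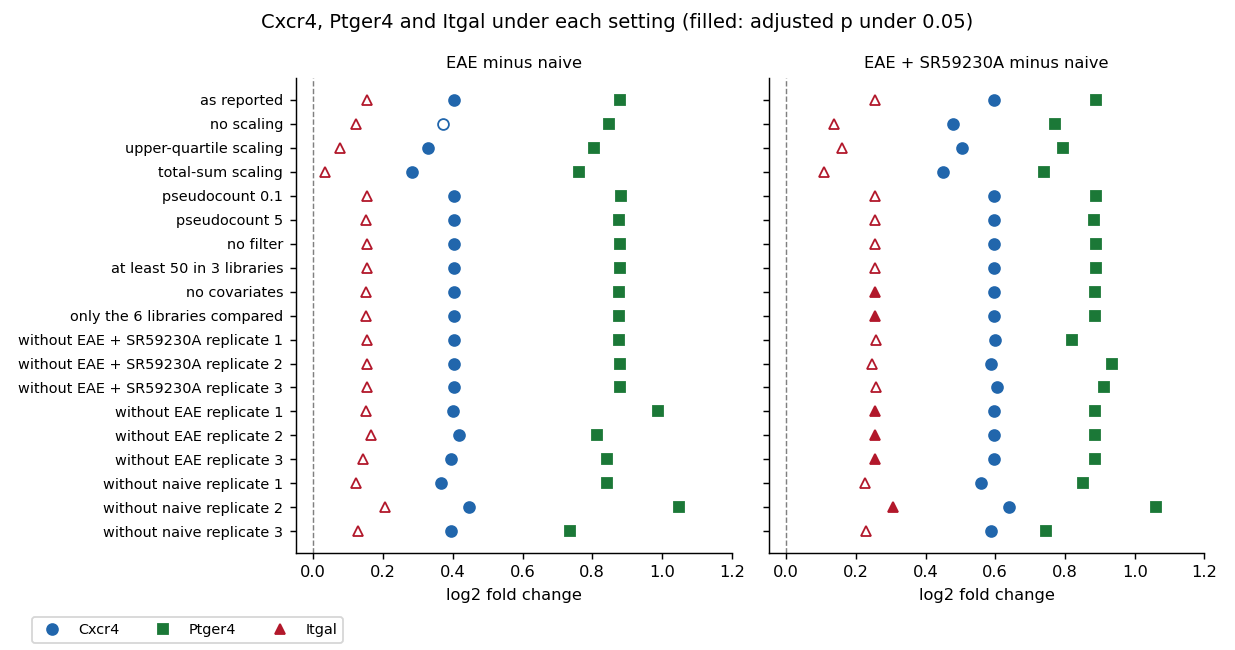
Log2 fold change (horizontal axes) of Cxcr4, Ptger4 and Itgal under each setting of the analysis (rows), for EAE against naive mice (left) and treated EAE against naive mice (right). Filled symbols have adjusted p under 0.05: Ptger4 is filled throughout, Cxcr4 is open only without scaling in EAE against naive mice (adjusted p = 0.077), and Itgal is filled under 6 settings in treated EAE against naive mice.

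Genes that act with these receptors were followed in lists chosen by function, 209 of whose 252 other symbols were in the table and 193 were tested. Of these, 25 rose and 21 fell in EAE against naive mice (23.8%, against 14.2% of all tested genes). In treated EAE against naive mice 33 rose and 17 fell (25.9%, against 14.8%). Between treated EAE and EAE mice 0 passed by limma-trend. At an unadjusted p under 0.05 there were 13 of the 193, beside 504 of all 13018 tested genes (3.87%). The lists were chosen with earlier results of these data known, so their higher shares are no result about the lists.

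Among 28 tested genes of CXCR4 signalling, 2 rose and 4 fell in EAE mice against naive mice, with a median log2 fold change of 0.0039. Rgs10, one of the regulators that end G protein signals, rose by 0.68 ± 0.11 on the log2 scale, at 496 ± 40.3 in EAE and 309 ± 6.98 in naive mice (SD, n = 3 each). Rgs18, of the same family, fell by 0.55 ± 0.09, at 1028 ± 19.6 against 1499 ± 54.2. Arrb1, which encodes β-arrestin 1, a protein that uncouples activated receptors, fell by 0.52 ± 0.12, and the transcription factor gene Foxo3 fell by 0.46 ± 0.09. In treated EAE against naive mice 3 of these 28 genes rose and 5 fell, with Rgs10 0.85 ± 0.11 higher.

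Of 14 other integrin genes tested, 3 rose and 1 fell in EAE mice against naive mice. Itgam, whose αM chain joins the β2 chain to form Mac-1, rose by 0.99 ± 0.15, at 1315 ± 89.6 in EAE and 669 ± 115 in naive mice. Itga2b, the αIIb chain of platelet integrin, rose by 0.57 ± 0.11 and Itga6, the α6 chain of laminin receptors, by 0.44 ± 0.10. Itga9, the α9 chain and another partner of β1, fell by 1.29 ± 0.25, at 33.0 ± 4.85 in EAE and 81.5 ± 3.25 in naive mice. It is named although its mean is below the level set for named genes, since it was the 1 that fell. The same numbers, 3 higher and 1 lower, were called in treated EAE against naive mice.

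Of 33 genes that activate integrins or signal from them, 1 rose and 2 fell in EAE mice against naive mice. The adaptor gene Skap2 rose by 0.59 ± 0.11, while the kinase gene Src fell by 0.69 ± 0.19 and Sipa1, which encodes an inactivator of the integrin-activating GTPase Rap1, fell by 0.49 ± 0.10. In treated EAE against naive mice 3 rose and 1 fell, and Sipa1 did not pass in that comparison or between treated EAE and EAE mice.

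Among 19 genes of selectin ligands and of their glycosylation, 3 rose and 2 fell in EAE mice against naive mice. The galactosyltransferase gene B4galt1 rose by 0.46 ± 0.11, the sialyltransferase gene St3gal1 fell by 0.63 ± 0.09 and Cd24a, a small glycoprotein that can bind P-selectin, fell by 0.40 ± 0.11. Against naive mice, 5 rose and 1 fell in treated EAE mice. Of 27 other adhesion genes, 3 rose and 5 fell in EAE mice, and 2 rose and 5 fell in treated EAE mice, against naive mice. Lgals1, which encodes galectin-1, rose by 1.04 ± 0.14 and the immunoglobulin-family gene Emb by 0.69 ± 0.10, while the stem-cell guidance receptor gene Robo4 fell by 1.06 ± 0.13 and Cd200 by 0.92 ± 0.16.

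Of 21 tested genes of chemotactic receptors other than CXCR4, 6 rose and 2 fell in EAE mice, and 8 rose and 1 fell in treated EAE mice, against naive mice. Ccr2, the receptor of inflammatory monocytes, rose by 4.13 ± 0.14 on the log2 scale in EAE mice. S1pr3, a receptor for sphingosine 1-phosphate, rose by 1.38 ± 0.16, at 146 ± 1.96 in EAE and 56.2 ± 5.46 in naive mice. S1pr4, of the same family, fell by 0.41 ± 0.08, and Ccr9, a receptor of lymphoid progenitors, fell by 1.42 ± 0.40. Of 20 genes of proteases linked to mobilisation and of their inhibitors, 5 rose and 2 fell in EAE mice, and 6 rose and 2 fell in treated EAE mice, against naive mice. The neutrophil serine protease genes Elane, Ctsg and Prtn3, whose products can cleave VCAM-1 and CXCL12, rose by 4.93 ± 0.25, 3.53 ± 0.18 and 2.30 ± 0.12 on the log2 scale, and the sheddase gene Adam17 by 0.57 ± 0.12.

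Of 17 tested genes of the prostaglandin E2 pathway other than Ptger4, 1 rose and 2 fell in EAE mice against naive mice, and 0 rose and 1 fell in treated EAE against naive mice. Abcc4, which encodes a transporter that exports prostaglandins, rose by 0.43 ± 0.09 on the log2 scale. The cyclooxygenase gene Ptgs1 fell by 0.45 ± 0.13 and Prkacb, a catalytic subunit gene of the cyclic AMP-dependent kinase, by 0.33 ± 0.09. Of the other EP receptor genes, Ptger2 had a log2 fold change of -0.35 ± 0.27 and Ptger3 one of 0.19 ± 0.17 in EAE against naive mice, and neither passed. Of 14 genes of CD44 partners and hyaluronan, 1 rose and 1 fell in EAE mice, and 3 rose and 0 fell in treated EAE mice, against naive mice. Hmmr, a hyaluronan-binding protein gene that is also part of the mitotic spindle, rose by 0.49 ± 0.11, and Slc9a3r1, an adaptor of ezrin-family proteins, fell by 0.51 ± 0.11 in EAE mice.

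**Figure D5:**
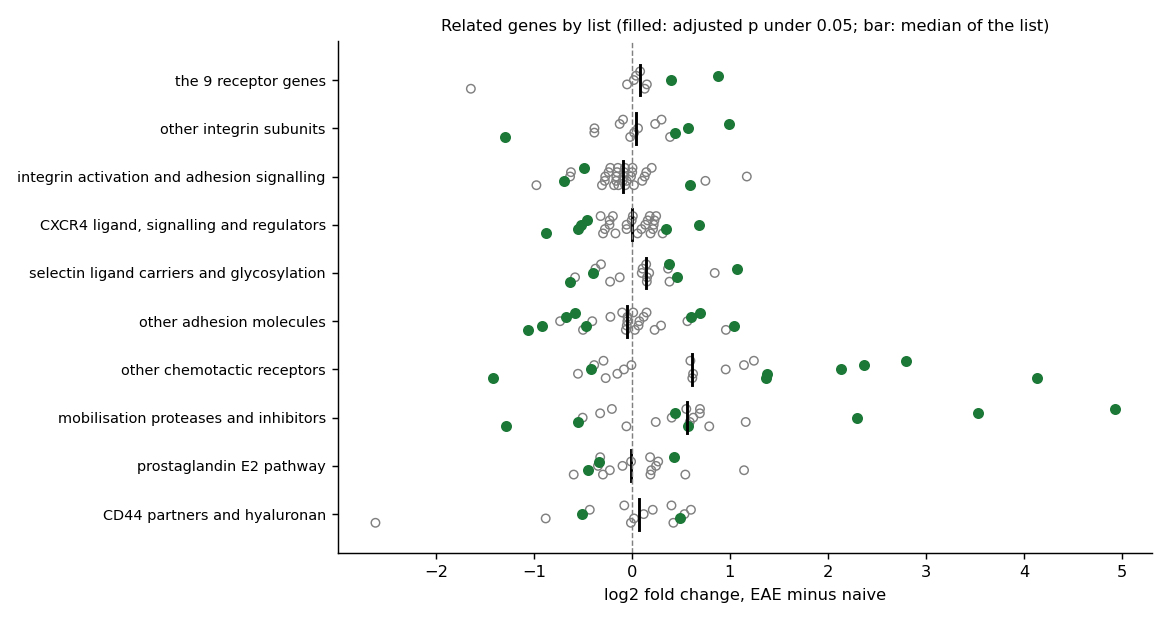
Log2 fold change in EAE against naive mice (horizontal axis) of the 9 receptor genes and of each list of related genes (rows). Points are genes, filled where adjusted p is under 0.05, and bars are list medians. Most points lie within 1 of 0, with Elane (4.93) and Ccr2 (4.13) farthest to the right.

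For each member, the genes of closest pattern across the 9 libraries were sought among 8696 or, for Vcam1, 8697 others with a mean of at least 100. These were the highest of many correlations, over libraries that share the difference between the groups, and they are given as descriptions. Cxcr4 was followed most closely by Abcf1, a gene of translation, and Surf4, a cargo receptor gene of the secretory pathway (Pearson r = 0.993 and 0.992). Ptger4 was followed by the histamine synthesis gene Hdc and the phosphate transporter gene Slc20a1 (0.991 and 0.989). Itgal was followed by Rif1 and Creld2 (0.982 and 0.981), Itgb2 by Tspan2 and Idnk (0.994 and 0.988), and Selplg by Thy1 and Senp2 (0.991 and 0.984). The closest to Itga4 were Dtx3l and As3mt (0.975 and 0.953), to Itgb1 Fibp and Letmd1 (0.933 and 0.928), to Cd44 Nmrk1 and Tspyl2 (0.961 and 0.949), and to Vcam1 Ap3b1 and Lmf2 (0.978 and 0.963). No member was among the closest of another.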

How the data were processed

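The table that the authors deposited gives 14940 genes in 9 libraries as whole numbers. These deposited values are treated as a score, since the authors had adjusted them in a way that the labels do not describe. Among the 4577 genes whose mean was 500 or more, 2 directions across the libraries held 7.65e-05% and 6.77e-05% of the variance of ln(value + 1), against 2.75% to 60.5% for the other 6. Separate libraries of raw counts would carry sampling noise in every direction. These directions lay within groups (99.4% and 99.8%), so the spread between mice may be understated. DESeq2 is listed, with no role, in the submitters' processing notes. Aligner, library kit and genome build: not given in the sources used here.

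Values were divided by median-of-ratios factors (0.900 to 1.11). Genes at 10 or more in 3 libraries before scaling were kept, which left 13018. Group differences of log2(value + 1) were tested with limma-trend (limma 3.58.1, R 4.3.3), with group coefficients and the 2 directions as covariates, with 4 residual and 7.52 prior degrees of freedom. Intervals are 95% and unadjusted. Groups follow the treatment labels, which describe separate mice, and replicate numbers follow the order of deposition. The members and the gene lists were chosen with earlier results of these data known. From each list, up to 4 called genes with a mean of at least 100 and the largest change in EAE against naive mice were named. One gene that this rule names is not reported here. Promoter sequences are from RefSeq.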

Additional observations from a re-analysis of the deposited data

How the results depend on the processing

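Each result was recomputed without scaling, with upper-quartile or total-sum scaling, with a pseudocount of 0.1 or 5, without a filter or with a minimum of 50 (under which Vcam1 was not tested), without the covariates, with only the 6 libraries compared, and without each library in turn. The integrin ratios were recomputed for the settings that touch them. No paired analysis was possible because the labels give no number that ties mice of different groups together. Depth is unknown, and the low level limits Vcam1 most. With total-sum scaling the median of all genes was -0.12 on the log2 scale in EAE against naive mice and -0.14 in treated EAE against naive mice, and without scaling it was -0.11 in treated EAE against naive mice.

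In EAE against naive mice 1853 genes were called, 1059 without scaling, 3485 without the covariates, and 1229 to 2620 with 1 library left out. Of the members, 1 was called without scaling. In treated EAE against naive mice 1932 genes were called, 1073 without scaling, 3920 without the covariates, 4476 with only the 6 libraries, and 1230 to 3324 with 1 library left out. Members called there numbered 4 without the covariates, 4 with only the 6 libraries, and 2 to 4 with 1 library left out. Leaving out naive replicate 1 lowered both totals by over 1.5 times. Between treated EAE and EAE mice 2 genes were called with only the 6 libraries, against 1.

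Log2 fold changes that changed sign were all small and none was called. In EAE against naive mice, Itgb1 was -0.011 without scaling, -0.055 with upper-quartile and -0.099 with total-sum scaling, Itga4 was -0.032 with upper-quartile and -0.077 with total-sum scaling, and Selplg was -0.035 with total-sum scaling. In treated EAE against EAE mice, without scaling, with upper-quartile and with total-sum scaling, Itga4 was -0.081, -0.014 and -0.023, Itgb1 was -0.077, -0.010 and -0.019, and Ptger4 was -0.078, -0.011 and -0.020. In treated EAE against naive mice, in the same order, Itga4 was -0.070, -0.047 and -0.10, Itgb1 was -0.089, -0.065 and -0.12, and Cd44 was -0.043, -0.020 and -0.073. With 1 library left out, EAE against naive mice gave -0.015 to 0.093 for Itga4, -0.0012 to 0.051 for Itgb1, -0.030 to 0.30 for Itgb2 and -0.14 to 0.052 for Cd44. Treated EAE against EAE mice gave -0.046 to 0.062 for Itga4, -0.072 to 0.060 for Itgb1, -0.59 to 0.14 for Vcam1 and -0.10 to 0.073 for Ptger4, and treated EAE against naive mice gave -0.051 to 0.081 for Itgb1 and -0.014 to 0.17 for Cd44. The cause of these shifts was not tested.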
